A study of Mus musculus with 8 samples.

Results

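Mitochondrial ribosomal proteins build the ribosome inside mitochondria, and their genes were taken as those with a symbol of Mrpl or Mrps, a number and at most 1 further letter, pseudogene names left out. This gave 78 of the 35596 genes in the deposited table, 49 with large subunit (Mrpl) and 29 with small subunit (Mrps) symbols, and all 78 had a mean of at least 1 TPM, the level required for testing. TPM is a gene's transcript abundance, corrected for length and scaled to 1 fixed total per library. The rule used names and no measured value.

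RNA of pancreatic islets, which hold the cells that make insulin and glucagon, was sequenced in 8 libraries from male mice of the inbred strain C57BL/6J, after collagenase digestion and picking by hand. The 4 weight-cycled libraries came from mice given 9 weeks each of a diet with 60% fat, one with 10% fat, and once more the 60% diet. The 4 obese libraries came from mice given the 10% diet for 9 weeks and then the 60% diet without a break for 18 weeks. The labels give neither ages nor whether a library is 1 animal or a pool, so p-values measure the spread between libraries, which may be technical. The groups share the time on each diet and differ in its order, and thereby in the last unbroken period on the 60% diet. No group without the 60% diet was analysed here. The depth of the libraries is unknown, because TPM does not keep it. In bulk islets, fewer cells of a type and less RNA per cell cannot be told apart.

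The mitochondrial ribosome translates only the few messengers encoded in mitochondrial DNA, all of which specify subunits of the respiratory chain and ATP synthase. Its proteins are encoded in the nucleus, made in the cytosol and imported. The small subunit reads the messenger, the large subunit forms the peptide bonds, and each joins proteins with a bacterial counterpart to proteins found only in mitochondria. In beta cells the respiratory chain supplies the ATP that couples glucose to insulin release. Symbols do not always give the place of a protein: in structures of the mammalian ribosome Mrps18a and Mrps30 lie in the large subunit, and Mrps36 belongs to the 2-oxoglutarate dehydrogenase complex.

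The labelled tissue carried its markers, with Ins1 and Ins2 together at 75.4% to 78.8% of TPM in weight-cycled and 76.9% to 78.4% in obese libraries. Of 8 endocrine markers 1 was called lower by limma, Pdx1, a beta cell transcription factor (log2 fold change -0.61, adjusted p = 0.0390), while Gcg at -0.52, Chga at -0.29, Sst at -0.28, Ppy at -0.06 and Iapp at 0.31 did not pass. Weight-cycled replicate 1 stood apart from its group. Its first principal component score over all tested genes was -7.98, against 13.8 to 30.6 in the other weight-cycled libraries and -23.3 to -5.03 in obese libraries. Its summed TPM of 9 acinar markers was 6663, where the other weight-cycled libraries had 2844 to 3209 and obese libraries 2270 to 4230. Summed macrophage markers (6 genes) were at 9.61 to 16.4 TPM in weight-cycled and 16.0 to 24.1 TPM in obese libraries, and summed endothelial markers (6 genes) at 29.1 to 55.0 and 48.3 to 77.2 TPM in the same order. Summed duct markers (6 genes) were at 63.5 to 84.0 TPM in weight-cycled and 66.6 to 82.3 TPM in obese libraries, and stromal markers (6 genes) at 1.24 to 2.71 and 1.90 to 2.74 TPM. Of the genes in these lists that were tested, limma at an adjusted p under 0.05 called 3 of 3 macrophage, 2 of 6 endothelial, 1 of 3 duct and 0 of 7 acinar markers lower, and 0 higher, where 23.9% of all tested genes were lower and 1.21% higher. After median-of-ratios scaling it called 1 endothelial marker lower and 0 of the macrophage, duct, acinar and endocrine markers. Of all tested genes, 1.81% were called after that scaling. No marker was at 0 in all libraries, and their part in the results below was not tested.

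In weight-cycled islets the messengers of the mitochondrial ribosome summed to nearly the same level as in obese islets, and 3 of the 78 were lower at the threshold used. On TPM as deposited, the median difference over the family lay nearer to 0 than that over all tested genes. Without the filter at a mean of 1 TPM the order turned, at -0.087 for the family and -0.069 over 19482 genes. Median-of-ratios scaling and length correction of the filtered genes each bring the median of all tested genes close to 0 by construction. The family's median then lay above 0, at 0.21 and 0.12. The 78 genes together summed to 1074, 1119, 1189 and 1403 TPM in the 4 weight-cycled libraries (replicates 1 to 4), against 1182, 1236, 1211 and 1166 TPM in the 4 obese libraries. The obese libraries thus fell inside the wider range of the weight-cycled ones, whose highest value, in replicate 4, lay above every other library and whose lowest, in replicate 1, lay below. The mean sum was 1197 ± 146 TPM in weight-cycled and 1199 ± 31.2 TPM in obese islets (SD, n = 4 each). Replicate 4 of the weight-cycled group held the highest of the 8 values for 32 members, and weight-cycled replicates 1 and 2 the lowest for 22 and 31. The SD was larger in the weight-cycled than in the obese group for 53 of the 78 genes, with a median coefficient of variation of 13.8% against 7.71%.

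Across genes, limma with Benjamini-Hochberg adjustment over the 8127 genes tested called 3 members lower in weight-cycled islets, Mrpl10, Mrps5 and Mrps9, and 0 higher at an adjusted p under 0.05 (11 members at an unadjusted p under 0.05). That is 3.85% of the members lower, where 23.9% of all tested genes were called lower and 1.21% higher. At the unadjusted threshold the 11 of 78 members stand beside 3993 of 8127 tested genes. A log2 fold change is weight-cycled minus obese on the log2(TPM + 1) scale, which understates the change of genes with few TPM. The median over members was -0.09, with 23 genes above 0 and 55 below, and the median over all tested genes was -0.26. Member values ran from -0.46 for Mrps5 to 0.36 for Mrpl57. The groups did not overlap, with every weight-cycled library lower, for 10 members (12.8%), where 21.1% of tested genes showed this, and with every weight-cycled library higher for 0 members, where 1.3% of tested genes did. Those 10 were Mrpl10, Mrps9, Mrps35, Mrps31, Mrpl38, Mrpl4, Mrpl45, Mrps26, Mrps18a and Mrps30.

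**Figure D1:**
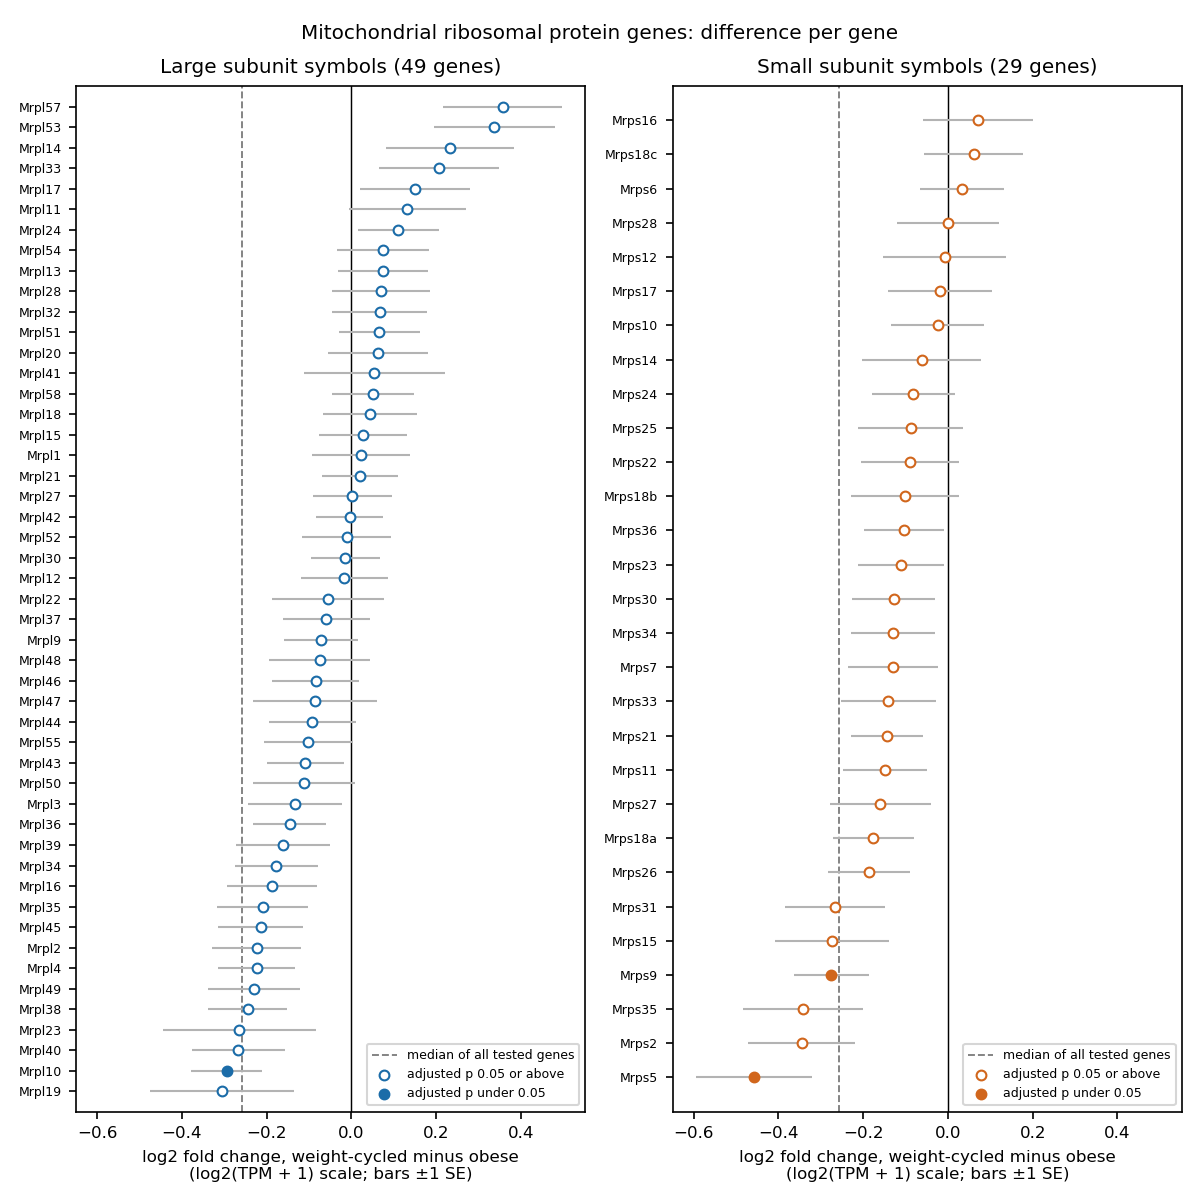
Log2 fold change (x axis, weight-cycled minus obese, log2(TPM + 1) scale) of each of the 49 large subunit and 29 small subunit genes (y axis), with bars of 1 SE. Filled points are the 3 genes with a limma adjusted p under 0.05, and the dashed line is the median of all tested genes at -0.26, to the left of most members.

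Mrps5 (ENSMUSG00000027374.12, chromosome 2, 127587222 to 127606829, build mm10) encodes the mitochondrial counterpart of bacterial S5, a protein of the small subunit at the entry of the messenger. It was at 5.34, 4.12, 4.84 and 3.97 TPM in weight-cycled replicates 1 to 4, against 8.04, 7.61, 5.80 and 5.34 TPM in obese replicates 1 to 4. Obese replicates 1 and 2 were the highest, and obese replicate 4 lay level with weight-cycled replicate 1, so that the groups just overlapped. The log2 fold change was -0.46 (SE 0.137, adjusted p = 0.0409 with limma).

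Mrpl10 (ENSMUSG00000001445.10, chromosome 11, 97041560 to 97049213) encodes the protein that anchors the stalk of the large subunit, where translation factors are recruited. It was at 10.4, 9.16, 9.91 and 9.47 TPM in weight-cycled islets and at 12.1, 12.2, 12.4 and 11.8 TPM in obese islets. All weight-cycled libraries lay below all obese ones, with little spread within either group. Its log2 fold change was -0.29 (SE 0.0847, adjusted p = 0.0372 with limma). Mrps9 (ENSMUSG00000060679.14, chromosome 1, 42851233 to 42905683), the counterpart of bacterial S9 in the head of the small subunit, was at 4.72, 4.72, 4.57 and 4.49 TPM in weight-cycled and 6.00, 5.45, 5.87 and 5.92 TPM in obese islets. Here too the groups were apart, and the log2 fold change was -0.28 (SE 0.0892, adjusted p = 0.0454 with limma).

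These calls depended on how the libraries were put on one scale. Median-of-ratios scaling, which moves the median of all tested genes from -0.26 to -0.01, placed Mrpl10 at 0.0086, Mrps9 at 0.0030 and Mrps5 at -0.18. Length correction subtracted from each library its own trend with transcript length together with its level, and also moved the median of all tested genes to -0.01. It placed Mrpl10, Mrps9 and Mrps5 at -0.14, -0.09 and -0.18. Under neither did limma call any of the 78 members (27 and 12 at an unadjusted p under 0.05, beside 2469 and 2219 of the 8127 tested genes), where 1.81% and 3.31% of tested genes were called. The smallest member adjusted p was 0.0775 after scaling and 0.0796 after length correction. On TPM as deposited, limma called 0 members when weight-cycled replicate 2, 3 or 4 was left out, where 0.473%, 0.865% and 0.122% of tested genes were called. It also called 0 members without obese replicate 1, 2 or 3, where 0%, 0.462% and 0.421% of tested genes were called. At an unadjusted p under 0.05 there were 5, 7 and 8 members, beside 2670 of 8010, 2739 of 8007 and 3459 of 8076 genes. Without obese replicate 4 limma called Mrpl10 and Mrps5, where 21.3% of tested genes were called.

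Leaving out weight-cycled replicate 1 gave more calls. TPM as deposited then gave 3 members higher, Mrpl33, Mrpl53 and Mrpl57, and 10 lower, Mrpl10, Mrpl35, Mrpl38, Mrpl4, Mrpl45, Mrps15, Mrps2, Mrps31, Mrps5 and Mrps9, where 3.35% of tested genes were higher and 54.4% lower by limma at an adjusted p under 0.05. Median-of-ratios scaling, with factors taken over all 8 libraries before replicate 1 was left out, gave 47 of the 78 members higher (60.3%) and 0 lower. Of the tested genes, 19.9% were then higher and 18% lower. The direction of the members as a set therefore turned with the scaling: 23 of 78 were above 0 on TPM as deposited, 70 with median-of-ratios scaling and 57 with length correction, all from 8 libraries. Under each of these the median of the members, -0.09, 0.21 and 0.12, lay above that of all tested genes, -0.26, -0.01 and -0.01.

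**Figure D2:**
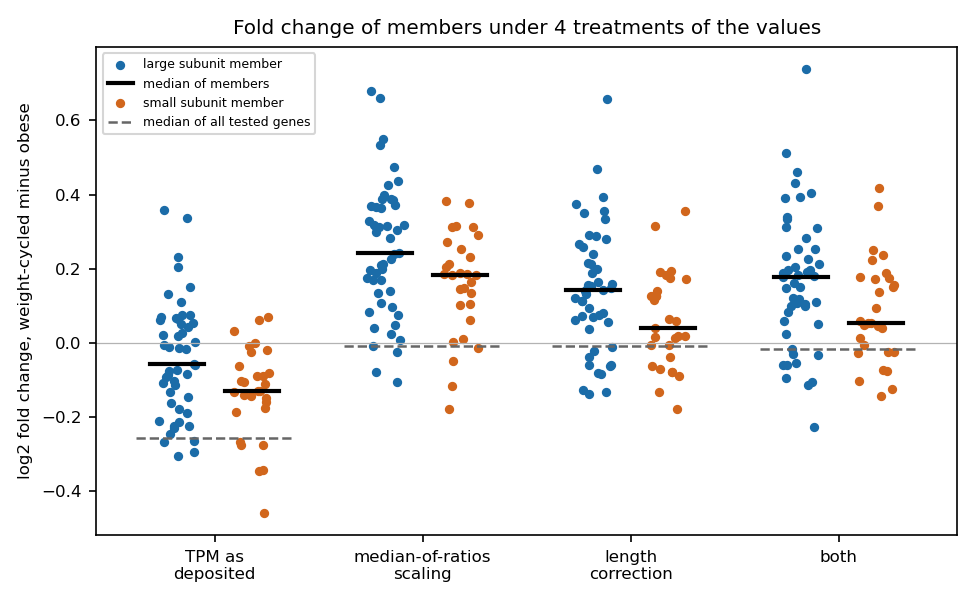
Points are log2 fold changes (y axis, weight-cycled minus obese) of large and small subunit members. Columns are TPM as deposited, median-of-ratios scaling, length correction, which removes a library's length trend and level, and both. Black bars are medians of members and dashed lines medians of all tested genes; the members' medians sit above the dashed line in each column.

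The promoters of the called genes and of the pair with the largest positive differences are shown. Some members of this family carry short elements near their starts, and matches to these are marked. Windows reach from 250 bases before to 50 bases after the start and are from RefSeq, assembly GRCm38.p6, written 5′ to 3′ along the gene. Of the 78 members 69 had a window, 75 windows in all. Capitals mark matches on either strand to GCGCANGCG, part of the core bound by NRF1, a regulator of nuclear genes for mitochondria, to CCGGAAG, a core of ETS factors such as GABP, or to AAGATGGCG, a core of YY1. None of these motifs contains another.
Mrps5, plus strand, chr2:127587176-127587475: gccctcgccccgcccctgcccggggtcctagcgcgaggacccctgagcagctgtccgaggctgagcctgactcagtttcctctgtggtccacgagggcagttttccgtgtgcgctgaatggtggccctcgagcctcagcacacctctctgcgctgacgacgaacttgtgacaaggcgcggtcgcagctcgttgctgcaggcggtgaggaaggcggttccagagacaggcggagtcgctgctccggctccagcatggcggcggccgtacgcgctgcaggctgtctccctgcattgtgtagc
Mrpl10, plus strand, chr11:97041332-97041631: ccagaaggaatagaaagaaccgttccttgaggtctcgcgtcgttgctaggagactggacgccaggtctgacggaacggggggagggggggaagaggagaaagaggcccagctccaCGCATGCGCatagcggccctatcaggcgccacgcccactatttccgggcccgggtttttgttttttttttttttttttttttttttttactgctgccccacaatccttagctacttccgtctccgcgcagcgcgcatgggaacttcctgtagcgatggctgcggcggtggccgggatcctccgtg
Mrps9, plus strand, chr1:42850983-42851282: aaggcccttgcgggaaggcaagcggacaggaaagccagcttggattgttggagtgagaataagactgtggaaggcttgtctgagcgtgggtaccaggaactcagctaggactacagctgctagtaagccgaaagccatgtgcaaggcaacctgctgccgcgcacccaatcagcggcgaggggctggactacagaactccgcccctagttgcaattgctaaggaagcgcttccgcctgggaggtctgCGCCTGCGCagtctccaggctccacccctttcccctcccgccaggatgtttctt
Mrpl57, plus strand, chr14:57825989-57826288: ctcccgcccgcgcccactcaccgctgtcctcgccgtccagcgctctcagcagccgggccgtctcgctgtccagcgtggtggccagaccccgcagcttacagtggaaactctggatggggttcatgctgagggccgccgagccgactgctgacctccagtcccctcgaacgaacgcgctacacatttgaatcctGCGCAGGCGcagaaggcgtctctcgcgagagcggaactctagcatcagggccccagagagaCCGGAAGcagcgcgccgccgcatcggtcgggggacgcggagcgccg
Mrpl53, plus strand, chr6:83108858-83109157: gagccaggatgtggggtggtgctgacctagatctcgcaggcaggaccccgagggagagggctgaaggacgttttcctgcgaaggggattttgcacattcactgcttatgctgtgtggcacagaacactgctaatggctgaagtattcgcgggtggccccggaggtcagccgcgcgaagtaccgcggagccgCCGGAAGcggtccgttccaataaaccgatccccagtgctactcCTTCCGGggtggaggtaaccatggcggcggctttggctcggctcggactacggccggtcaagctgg
Mrpl10, Mrps9 and Mrpl57 each held 1 NRF1 match, Mrpl57 also held 1 ETS match and Mrpl53 held 2 ETS matches. The window of Mrps5 held 0 matches to these letters. It opens at 127587176, close before the gene start given above, 127587222, and so covers little of what lies before that start. Over all member windows, 21.3% matched the NRF1 letters, 34.7% the ETS letters and 10.7% the YY1 letters, against 6.25%, 8.86% and 1.40% of the 32851 windows of all genes. By subunit, 12 of 48 large and 4 of 27 small subunit windows held the NRF1 letters, and 15 and 11 the ETS letters. Any of the 3 motifs was found in 42 of the 75 member windows (56.0%), against 14.8% of the windows of all genes. A match is a run of letters and no measured binding.

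At the other end of the range stood 5 genes of the large subunit. Mrpl57 (ENSMUSG00000021967.4, chromosome 14, 57826234 to 57829296) and Mrpl53 (ENSMUSG00000030037.9, chromosome 6, 83109040 to 83109939) encode proteins found only in mitochondrial ribosomes. Mrpl57 was at 26.9, 35.6, 35.7 and 46.4 TPM in weight-cycled and 25.8, 30.8, 27.6 and 26.1 TPM in obese islets. Mrpl53 was at 34.2, 42.1, 41.9 and 59.0 TPM in weight-cycled and 30.4, 34.6, 37.8 and 34.3 TPM in obese islets. For both genes weight-cycled replicates 2 to 4 lay above every obese library and weight-cycled replicate 1 lay among them. Their log2 fold changes were 0.36 (SE 0.140, adjusted p = 0.0690 with limma) and 0.34 (SE 0.143, adjusted p = 0.0835 with limma), and neither passed in this fit. An array-weighted fit of the same 8 libraries called both higher, where 296 of the 8127 tested genes were higher and 4499 lower. Without weight-cycled replicate 1, Mrpl57 and Mrpl53 were at 0.49 and 0.45 (limma adjusted p = 0.00345 and 0.00884).

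Mrpl14, counterpart of bacterial L14 at the face where the subunits meet, followed with 19.8, 27.8, 21.2 and 31.8 TPM in weight-cycled and 17.6, 22.2, 24.2 and 20.1 TPM in obese islets, a log2 fold change of 0.23 (SE 0.150, adjusted p = 0.221 with limma). Mrpl33, a small protein with a bacterial counterpart and the most abundant messenger of the family at a mean of 65.6 TPM, was at 54.6, 67.9, 65.8 and 95.8 TPM in weight-cycled and 57.6, 60.7, 63.7 and 58.8 TPM in obese islets. Mrpl33 overlapped between groups through weight-cycled replicate 1, the lowest of the 8, while replicate 4 was the highest. Its log2 fold change was 0.21 (SE 0.142, adjusted p = 0.248 with limma). Mrpl17, counterpart of bacterial L17, was at 0.15 (SE 0.130, adjusted p = 0.352 with limma). All 5 stayed above 0 under either correction, while an array-weighted fit put Mrpl17 at -0.0031.

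**Figure D3:**
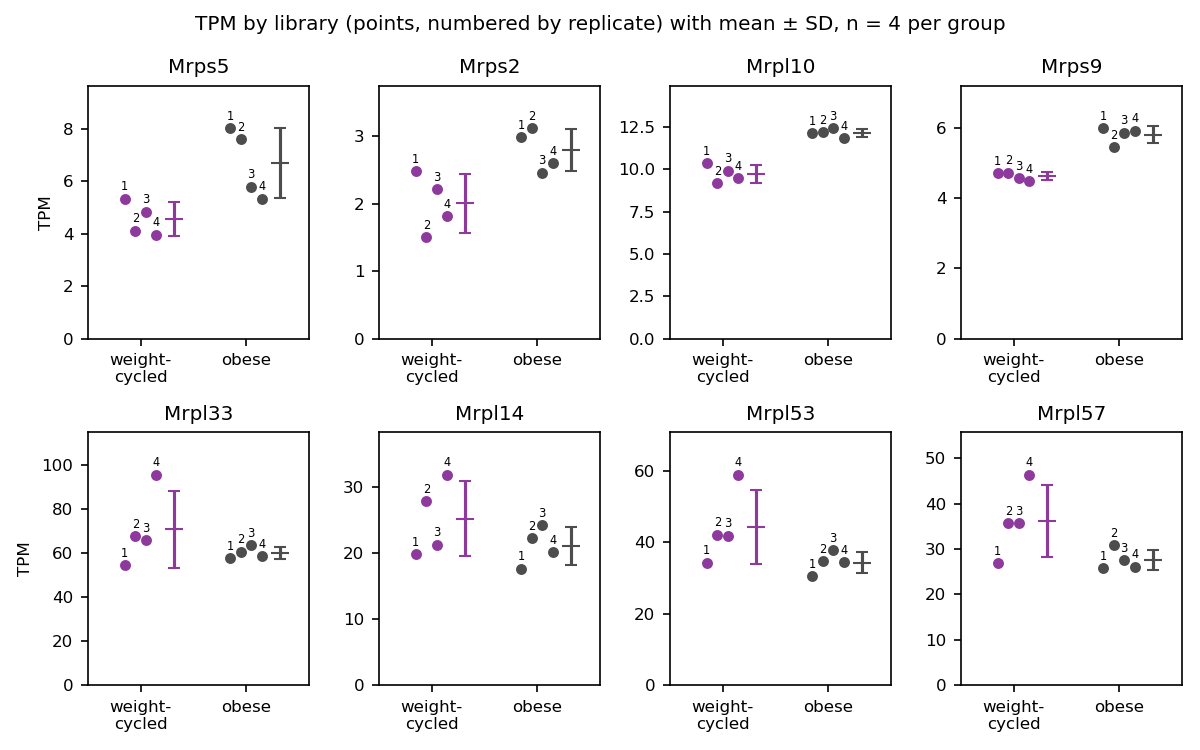
TPM (y axis) of 8 members in each library, weight-cycled left of obese, with points numbered by replicate and the mean ± SD at their right (n = 4 per group). Mrpl10 and Mrps9 separate the groups with little spread, while Mrpl33, Mrpl14, Mrpl53 and Mrpl57 spread widely among weight-cycled libraries, replicate 4 highest.

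Among the members below the median of all genes, Mrps2, counterpart of bacterial S2, was at 2.49, 1.4996, 2.22 and 1.81 TPM in weight-cycled and 2.99, 3.12, 2.46 and 2.60 TPM in obese islets, a log2 fold change of -0.34 (SE 0.126, adjusted p = 0.0583 with limma). The groups overlapped only between weight-cycled replicate 1 and obese replicate 3. Mrps35, a protein of the small subunit without a bacterial counterpart, was at 4.95, 6.31, 7.66 and 7.64 TPM in weight-cycled and 7.85, 8.22, 7.78 and 10.7 TPM in obese islets. Its groups did not overlap, and its log2 fold change was -0.34 (SE 0.142, adjusted p = 0.0798 with limma). Mrpl19, counterpart of bacterial L19, was near the floor for testing, at 1.38, 1.51, 1.15 and 1.46 TPM in weight-cycled and 1.96, 1.06, 2.07 and 2.93 TPM in obese islets. Mrpl19 overlapped between groups, with a log2 fold change of -0.31 (SE 0.169, adjusted p = 0.160 with limma), and 1962 of its exonic bases are shared with Gcfc2 on the opposite strand, a gene at a mean of 0.205 TPM.

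The other members whose weight-cycled libraries all lay below all obese ones spanned both subunits, and none passed in the unweighted fit of 8 libraries. Array weights called Mrpl4, Mrpl45 and Mrps26 lower. That fit called 19 of the 78 members lower, where 4499 of the 8127 tested genes were called lower. Mrpl38, found only in mitochondria, was at 7.47, 6.25, 7.58 and 6.76 TPM in weight-cycled and 8.77, 8.55, 8.27 and 8.32 TPM in obese islets (log2 fold change -0.25, SE 0.0934, limma adjusted p = 0.0642). Mrpl4, counterpart of bacterial L4, which reaches into the exit tunnel, was at 9.23, 9.04, 8.70 and 8.25 TPM in weight-cycled and 11.5, 10.6, 10.1 and 9.62 TPM in obese islets (-0.22, SE 0.0916, limma adjusted p = 0.0767). Mrpl45, which sits at the tunnel exit and holds the ribosome to the inner membrane, had the lowest level of all members, at 1.12 to 1.47 TPM in weight-cycled and 1.47 to 1.67 TPM in obese libraries (-0.21, limma adjusted p = 0.107). All 3 are proteins of the large subunit, and their obese ranges began close above the weight-cycled ones.

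In the small subunit, Mrps31, found only in mitochondria, was at 3.28, 2.21, 3.14 and 3.12 TPM in weight-cycled and 4.18, 3.68, 3.47 and 3.51 TPM in obese islets (log2 fold change -0.27, SE 0.119, limma adjusted p = 0.0948). Weight-cycled replicate 2 was the lowest of the 8. Mrps26, likewise without a bacterial counterpart, was at 6.49 to 7.65 TPM in weight-cycled and 7.71 to 8.99 TPM in obese libraries (-0.19, SE 0.0968, limma adjusted p = 0.137). Of these 5 genes, Mrpl38, Mrpl4 and Mrps26 were above 0 after median-of-ratios scaling, at 0.05, 0.08 and 0.11, and Mrps31 and Mrpl45 were at -0.01 and -0.02.

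By subunit, limma called 1 of 49 large subunit members lower, Mrpl10, and 2 of 29 small subunit members lower, Mrps5 and Mrps9. It called 0 higher in either, where 23.9% of all tested genes were lower and 1.21% higher. The median log2 fold change was -0.06 over the large and -0.13 over the small subunit, beside -0.26 over all tested genes. Above 0 were 20 of 49 large and 3 of 29 small subunit genes, beside 1177 of the 8127 tested genes. The large subunit genes summed to 690, 743, 753 and 914 TPM in weight-cycled and 724, 775, 767 and 724 TPM in obese libraries. Small subunit genes summed to 384, 377, 436 and 489 TPM in weight-cycled and 458, 461, 445 and 442 TPM in obese libraries. The ratio of the sums was 1.80, 1.97, 1.73 and 1.87 in weight-cycled and 1.58, 1.68, 1.72 and 1.64 in obese libraries, so that every weight-cycled library lay above every obese one, weight-cycled replicate 3 by little.

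The same contrast was taken gene by gene, as the mean log2(TPM + 1) over large subunit members minus that over small subunit members in each library. The difference was 0.158, 0.234, 0.112 and 0.170 in weight-cycled replicates 1 to 4 and 0.0428, 0.0691, 0.113 and 0.0853 in obese replicates 1 to 4. Weight-cycled replicate 3 and obese replicate 3 were level, and the other weight-cycled libraries lay above every obese one. The group means were 0.168 ± 0.0505 in weight-cycled and 0.0776 ± 0.0294 in obese islets (SD, n = 4 each), a gap of 0.09, and no test was made of a score over members. With Mrps18a and Mrps30 counted as large and Mrps36 left out the gap was again 0.09, and the groups did not overlap, at 0.0602 to 0.176 in weight-cycled and -0.0088 to 0.0578 in obese libraries. The gap was 0.08 after length correction but 0.023 when medians over members replaced means. It was 0.07 to 0.11 with any 1 library left out.

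**Figure D4:**
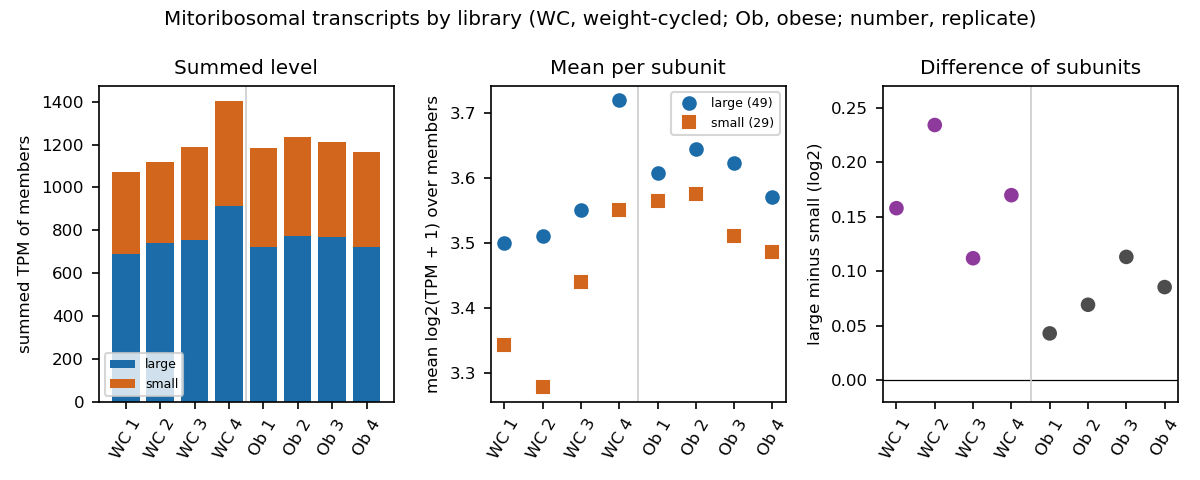
Left, summed TPM of large and small subunit members in each library; middle, mean log2(TPM + 1) over 49 large and 29 small subunit genes; right, their difference in log2 units. Weight-cycled replicate 4 has the highest sum, 1403 TPM, and the subunit difference is 0.112 to 0.234 in weight-cycled and 0.0428 to 0.113 in obese libraries.

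Within the large subunit, the 30 genes with a bacterial counterpart had a median log2 fold change of -0.02 and the 19 mitochondria-specific ones -0.07. Within the small subunit the medians were -0.07 for 16 genes with a counterpart and -0.13 for 13 mitochondria-specific ones, all 13 of which were below 0, as were 6950 of the 8127 tested genes. The 3 members called lower all have a bacterial counterpart, as do 46 of the 78 members. After median-of-ratios scaling these medians were 0.29, 0.21, 0.24 and 0.17 in the order given, and 11 of the 13 turned to above 0.

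None of the most abundant members passed the limma test. Mrps21, counterpart of bacterial S21, was at 55.0, 53.5, 59.8 and 62.4 TPM in weight-cycled and 66.0, 66.2, 60.8 and 62.0 TPM in obese islets, a log2 fold change of -0.14 (SE 0.0848, adjusted p = 0.183 with limma). Mrps33, found only in mitochondria, was at -0.14 (SE 0.112), and Mrpl52, likewise, at -0.01 (SE 0.105). Mrps12, which forms part of the decoding centre, was at 34.9, 30.4, 47.7 and 50.1 TPM in weight-cycled and 41.6, 42.2, 37.6 and 39.4 TPM in obese islets. The weight-cycled libraries thus split on both sides of the obese ones for Mrps12, and its log2 fold change was -0.01 (SE 0.145). Levels per length ranged from a mean of 1.40 TPM for Mrpl45 to 65.6 TPM for Mrpl33, with a median of 9.44 TPM, and 11 members above 30 TPM held 41.4% of the summed level. Of the others among those 11, Mrpl54 was at 0.08 (SE 0.108), Mrpl20, counterpart of bacterial L20, at 0.06 (SE 0.117) and Mrps23 at -0.11 (SE 0.101), none past the test. Like Mrpl33, Mrpl54 and Mrpl20 had their lowest value in weight-cycled replicate 1 and their highest in weight-cycled replicate 4. Mrps21, Mrps33, Mrpl52 and Mrps12 turned to above 0 after median-of-ratios scaling, at 0.18, 0.18, 0.31 and 0.32.

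Members with known special roles did not pass the limma test. Mrpl12, the stalk protein that also binds the mitochondrial RNA polymerase in human cells, was at 8.74, 8.91, 8.40 and 10.7 TPM in weight-cycled and 9.16, 9.63, 10.0 and 8.32 TPM in obese islets (log2 fold change -0.02, SE 0.103). Mrpl58, a peptidyl-tRNA hydrolase of the release factor family that frees stalled ribosomes, was at 19.9, 20.5, 17.9 and 20.3 TPM in weight-cycled and 17.1, 21.4, 17.5 and 19.9 TPM in obese islets (0.05, SE 0.0973). Both overlapped between groups. Mrpl3, near the peptidyl transferase centre, was at -0.13 (SE 0.112), and Mrpl44, which resembles ribonuclease III, at -0.09 (SE 0.102). Mrps16 was at 0.07 (SE 0.130) and Mrps22, a mitochondria-specific protein, at -0.09 (SE 0.116).

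The paralogs Mrps18a, Mrps18b and Mrps18c, relatives of bacterial S18 of which Mrps18c is counted here as its counterpart, differed in level. Mrps18c averaged 30.1 ± 5.57 TPM in weight-cycled and 28.5 ± 1.08 TPM in obese islets, Mrps18a 14.6 ± 1.66 and 16.5 ± 0.135 TPM, and Mrps18b 7.09 ± 1.28 and 7.62 ± 0.765 TPM (SD, n = 4 each). Their log2 fold changes were 0.06 (SE 0.117), -0.18 (SE 0.0954) and -0.10 (SE 0.128), none of which passed. Mrps18a was the only one of the 3 whose groups did not overlap. They were apart by very little, at 13.1 to 16.36 TPM in weight-cycled and 16.37 to 16.7 TPM in obese libraries. After median-of-ratios scaling its log2 fold change was 0.14. Mrps30 was at -0.13 (SE 0.0978) and Mrps36 at -0.10 (SE 0.0940).

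Estimates for some members are uncertain because reads can be shared. Mrpl23 was listed at a mean of 1.51 TPM, while Mrpl23-ps1, a pseudogene named for it, was listed at 25.8, 28.9, 29.6 and 35.6 TPM in weight-cycled and 35.7, 30.7, 31.9 and 29.5 TPM in obese libraries. The split between these 2 is an estimate by sequence, and Mrpl23-ps1 was singled out after its values were seen. The other 4 pseudogenes named for members were listed at under 0.1 TPM in every library. Exons of 33 members overlap those of another annotated gene, 11 of them a gene at a mean of 1 TPM or more. Mrps34 shares 763 exonic bases with Nme3 on the same strand, a gene at 42.7 TPM, and Mrpl47 shares 616 with Ndufb5 on the opposite strand, at 50.4 TPM. The members Mrpl46 and Mrps11 share 173 bases with each other on opposite strands. The labels do not say whether counting kept the strand.

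Transcript length was related to the differences across all genes. The correlation of a gene's deviation with its length was 0.35 in weight-cycled replicate 1 and -0.40 to -0.28 in the other weight-cycled libraries, and 0.18 to 0.38 in obese libraries (Spearman's rho across 8127 genes, which are not independent replicates). Members are short, with a median of 1052 bases against 1795 for all tested genes, and 54 of the 78 fell into the 2 shortest of 5 equal bins by length. In the shortest bin, up to 896.5 bases, the median log2 fold change was -0.01 over 30 members and -0.14 over all its genes, and in the next, up to 1480 bases, -0.12 over 24 members and -0.16 over all. In the 3 longer bins, with 8 members each, the members' medians were -0.09, -0.04 and -0.11, against -0.25, -0.30 and -0.36 for all genes. Of the members called lower, Mrpl10 and Mrps9 were in the second bin, where 16.6% of genes were called lower, and Mrps5 in the fourth, where 28% were. Across the 78 members rho between log2 fold change and length was -0.26, and between log2 fold change and mean TPM 0.54, while length and mean TPM were themselves related (rho -0.66), so that these cannot be told apart.

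**Figure D5:**
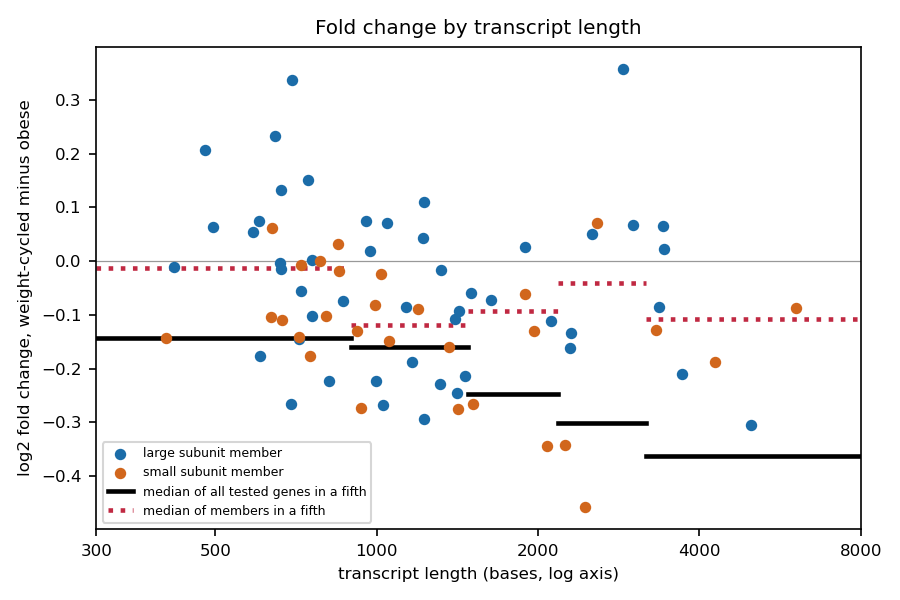
Log2 fold change (y axis, weight-cycled minus obese) of each member against transcript length (x axis, bases, log scale). Black bars are medians of all tested genes in 5 equal bins by length and dotted bars medians of the members in them; the black bars run from -0.14 to -0.36 and the dotted ones from -0.01 to -0.12.

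Among other genes of mitochondrial gene expression, calls were again only in the lower direction, where 23.9% of all tested genes were called lower. Of 5 mitochondrial ribosomal proteins with other names (Dap3, Ptcd3, Aurkaip1, Chchd1 and Gadd45gip1), 0 were called, with a median log2 fold change of -0.16 and Ptcd3 nearest, at -0.32 (limma adjusted p = 0.0524). Of 22 tested genes for assembly and ribosomal RNA modification, 3 were lower, 0 higher and 19 did not pass (median -0.13). Dhx30, an RNA helicase, was at 3.28, 2.08, 2.49 and 2.46 TPM in weight-cycled and 3.83, 4.12, 4.27 and 3.83 TPM in obese islets (log2 fold change -0.50, SE 0.117, limma adjusted p = 0.0322). The other 2 were Noa1 and Rcc1l, both at -0.34.

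Of 11 tested mitochondrial translation factors, 3 were lower, 0 higher and 8 did not pass (median -0.30). Tufm, the elongation factor that brings charged tRNA to the ribosome, was at 7.47, 5.65, 7.07 and 6.19 TPM in weight-cycled and 9.11, 8.78, 8.66 and 8.25 TPM in obese islets (log2 fold change -0.36, SE 0.102, limma adjusted p = 0.0367). Mtif2, the initiation factor, was at -0.41 (SE 0.107) and Gfm1, which moves the ribosome along the messenger, at -0.47 (SE 0.146). Of 11 tested mitochondrial aminoacyl-tRNA synthetases, Iars2 was lower at -0.39 (SE 0.125) and 10 did not pass (median -0.15). Of 10 tested genes for mitochondrial transcription and RNA stability, 3 were lower and 7 did not pass (median -0.21). The lowest was Lrpprc, which stabilises mitochondrial messengers, at 2.54, 1.34, 1.91 and 2.66 TPM in weight-cycled and 3.71, 4.10, 4.01 and 3.59 TPM in obese islets (log2 fold change -0.66, SE 0.142, limma adjusted p = 0.0303). Mtpap, the mitochondrial poly(A) polymerase, and Grsf1, an RNA-binding protein, were at -0.34 and -0.42. With either the scaling or the length correction, limma called 0 genes of these lists, where 1.81% and 3.31% of all tested genes were called.

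The 13 messengers that the mitochondrial ribosome translates had a median log2 fold change of -0.55, and limma called 0 of them. At an unadjusted p under 0.05 there were 5, beside 3993 of the 8127 tested genes. Summed, the 13 messengers were at 15969, 15635, 11727 and 16990 TPM in weight-cycled and 15392, 14135, 18703 and 20390 TPM in obese libraries. These sums overlapped between the groups. The most abundant of the 13 were mt-Nd3 and mt-Co3, at log2 fold changes of -0.16 and 0.06. Without weight-cycled replicate 1, limma called 9 of the 13 lower, where 54.4% of all tested genes were.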

How the data were processed

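Islet RNA, enriched for poly-A, was sequenced in 4 weight-cycled and 4 obese libraries. The authors deposited TPM per gene. The submitters' processing notes name Salmon 1.5.2 and the build mm10. Not given in the sources used here: the annotation and how transcripts were summed to genes. Symbols were matched for 35527 of 35596 gene IDs. Coordinates and transcript lengths (median over protein-coding transcripts) were taken from GENCODE M21, whose assembly GRCm38 is that of mm10.

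Genes with a mean of at least 1 TPM entered limma 3.58.1, run in R 4.3.3 (mean-variance trend, two-sided, no covariate) on log2(TPM + 1), weight-cycled minus obese, with Benjamini-Hochberg adjustment at 0.05. Count tests were not run, since TPM are not counts. Length correction subtracted a loess fit (span 0.5) on log2 length, per library, from each gene's deviation, which removes the library's level too. Members, lists and tests were chosen with earlier results of these data known. Members were named by rule: those called, the 5 largest differences each way, the 3 most abundant per subunit, and a fixed set of 13; of other lists, up to 3 called genes. Further members were named as non-overlapping, newly called without a library, abundant, or sharing exons with an expressed gene, and 4 at the ends of a range or list (Mrpl23, Mrpl45, Ptcd3, Mrpl23-ps1), all after their values were seen. The fit was tested on simulated data. One gene of the translation factor list (Mtres1) matched no symbol.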

Additional observations from a re-analysis of the deposited data

Results flagged for a closer look

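Dixon's ratio was computed for 118 sets of 4 libraries, and in 6 of them 1 library was farther from the rest than its critical value, where about 5.9 such sets (1 in 20) come by chance. Mrps35 was at 10.7 TPM in obese replicate 4, and at 7.78 to 8.22 TPM in the remaining obese libraries. Mrpl3 was at 9.04 TPM in obese replicate 3 (remaining obese libraries 11.4 to 11.6 TPM). Rcc1l was at 1.93 TPM in weight-cycled replicate 3 (remaining weight-cycled libraries 1.407 to 1.495 TPM). Weight-cycled replicate 1 held 3 of the 6. There, Iars2 was at 2.17 TPM and at 1.33 to 1.43 TPM in the remaining weight-cycled libraries. Kdr, an endothelial receptor gene, was at 3.47 TPM there and at 1.76 to 1.995 TPM in the remaining ones. The 9 acinar markers summed to 6663 TPM there and to 2844 to 3209 TPM in the remaining ones. No cause was tested for any of these.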

How the results depend on the processing

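The count of 3 members called by limma was 3 again with pseudocounts of 0.1 and 5, a filter at 5 TPM or an untrended variance, and 4 with the replicate number as a block (Mrpl10, Mrps35 and Mrps5 lower, Mrpl57 higher, and Mrps9 not called, at an adjusted p of 0.0583). It was 0 without the filter on low values, after median-of-ratios scaling, after length correction and after both, 21 with array weights (2 higher and 19 lower) and 11 at a threshold of 0.1. With 1 library left out it was 0 to 47. The count of all tested genes called was 2044 in the report's fit, 0 without the filter (5686 at an unadjusted p under 0.05), 1080 with the filter at 5 TPM, 147 after scaling (101 higher, 46 lower), 269 after length correction (145 higher, 124 lower), 167 after both, 4795 with array weights and 3963 at 0.1, and 0 to 4660 with a library left out. The 6 mitochondrial lists held 10 called genes, 0 without the filter and after scaling, length correction or both, 2 with the filter at 5 TPM, 36 with array weights, 26 at 0.1, and 0 to 31 with a library left out. The members' median exceeded that of all genes by 0.17, and by 0.10 to 0.32 with a library left out. This excess was 0.069 with a pseudocount of 5 and 0.23 with a pseudocount of 0.1. The difference was -0.018 without the filter, where 19482 genes entered. The subunit gap of 0.09 was 0.023 with medians over members and 0.07 to 0.11 with a library left out; the cause was not tested.

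Replicate numbers did not pair the libraries: same-numbered pairs had correlations of deviations of 0.21, -0.28, -0.05 and 0.23, and not every library correlated best with its own number. With the replicate block, limma called 149 genes higher and 2754 lower.

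Some genes changed sign, as log2 fold changes. Scaling gave Mrpl10 0.0086, Mrps9 0.0030, Mrpl52 0.31, Mrps21 0.18, Mrps33 0.18, Mrps12 0.32, Mrpl3 0.17, Mrpl12 0.28, Mrpl44 0.20, Mrps22 0.17, Mrps18a 0.14, Mrps18b 0.19, Mrps30 0.10 and Mrps36 0.21. Length correction gave Mrpl19 0.074, Mrpl52 0.056, Mrps12 0.13, Mrpl3 0.14, Mrpl12 0.15, Mrpl44 0.094, Mrps22 0.064, Mrps18b 0.041, Mrps30 0.20 and Mrps36 0.018. Both together gave Mrpl19 0.051, Mrpl52 0.11, Mrps33 0.040, Mrps12 0.17, Mrpl3 0.20, Mrpl12 0.18, Mrpl44 0.12, Mrps22 0.047, Mrps18b 0.053, Mrps30 0.19 and Mrps36 0.048. Array weights gave Mrpl17 -0.0031, Mrps12 0.22, Mrpl58 -0.028, Mrps16 -0.13, Mrps22 0.019, Mrps18b 0.063 and Mrps36 0.023. Leaving out 1 library, with or without scaling, gave ranges of -0.32 to 0.050 for Mrpl10, -0.085 to 0.37 for Mrpl12, -0.48 to 0.062 for Mrpl19, -0.21 to 0.23 for Mrpl3, -0.13 to 0.31 for Mrpl44, -0.10 to 0.44 for Mrpl52, -0.12 to 0.45 for Mrps12, -0.055 to 0.49 for Mrps16, -0.23 to 0.25 for Mrps18a, -0.17 to 0.27 for Mrps18b, -0.054 to 0.53 for Mrps18c, -0.18 to 0.28 for Mrps21, -0.14 to 0.27 for Mrps22, -0.15 to 0.13 for Mrps30, -0.23 to 0.34 for Mrps33, -0.41 to 0.13 for Mrps35, -0.15 to 0.31 for Mrps36 and -0.30 to 0.059 for Mrps9.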
